A study of Homo sapiens with 24 samples.

Results

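SK-MES1 is an established human cell line, derived from a lung tumour of squamous type. The change of untreated SK-MES1 cells between 0 h and 8 h was read from the 3 RNA-Seq libraries labelled control at 8 h and the 3 labelled control at 0 h, which are 6 of the 24 libraries of the series, chosen by their treatment and time labels alone. All 6 came from cells grown in medium with fetal calf serum and then moved for 3 h to growth factor-depleted medium, DMEM without phenol red that held serum albumin, antibiotics and glutamine. The clock started after those 3 h, so the 0 h libraries were already depleted and the 8 h libraries had spent 11 h in that medium, with no agent added. The remaining 18 libraries are the later untreated time points and an arm given 2 ng/ml TGFβ1. No library of cells kept in serum was analysed here, and time in culture and depletion cannot be told apart.

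Serum brings growth factors, lipoprotein cholesterol, hormones and many small ligands to cultured cells. Growth factors act through receptor tyrosine kinases on the ERK and PI3K-AKT pathways, which drive entry into the cell cycle and hold the FOXO transcription factors out of the nucleus. Cholesterol taken up from lipoproteins keeps the SREBP transcription factors in the endoplasmic reticulum, and when it is scarce these factors are processed and switch on the genes of sterol and fatty acid synthesis.

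The 0 h libraries held between 50210618 and 52034205 estimated counts and the 8 h libraries between 60914553 and 66477622, so each 8 h library was deeper than each 0 h library. The share of TPM (a transcript level corrected for length and scaled to the same sum in each library) on mitochondrially encoded genes was 8.77% to 9.64% at 0 h and 9.35% to 10.5% at 8 h, and the part of depth or of this share in the changes below was not tested. In a principal component analysis of the 12 libraries of 0 h and 8 h of both arms, the first component (36.1% of the variance) set the 0 h from the 8 h libraries and also parted the arms at 8 h. All 4 epithelial markers reached 1 TPM, led by KRT8 at 426.2 ± 19.4 TPM (SD, n = 3) and KRT18 at 419.8 ± 11.99 TPM at 0 h. Of 7 squamous markers only TP63, SOX2 and KRT17 reached 1 TPM in any of the 6 libraries, while KRT6A was listed at 0 and KRT5, KRT14 and DSG3 stayed at or below 0.0819 TPM, so the keratins that define squamous epithelium were at or near 0 in cells labelled as squamous carcinoma. The summed level of the squamous markers lay between 11.6 and 13.4 TPM at 0 h and between 20.4 and 22.9 TPM at 8 h. Among 5 fibroblast markers COL1A1 was high at 253.9 ± 38.0 TPM at 0 h and COL1A2 was near 0. Their sum lay between 218.2 and 293.5 TPM at 0 h and between 273.5 and 279.2 TPM at 8 h. PDGFRB, at 2.17 ± 0.35 TPM at 0 h and 4.88 ± 0.78 TPM at 8 h, was the only marker of this class that changed (limma voom adjusted p below 0.01). COL3A1 was at 2.86 ± 0.14 TPM at 0 h and 3.04 ± 0.31 TPM at 8 h. None of 4 lung adenocarcinoma and alveolar markers, 1 of 3 endothelial markers (PECAM1) and 1 of 4 leukocyte markers (PTPRC) reached 1 TPM. RNA came from whole dishes, in which fewer cells expressing a gene and less of its RNA per cell cannot be told apart.

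Between 0 h and 8 h, 4515 of 17453 tested genes (25.9%) changed with an adjusted p below 0.01 in limma voom, of which 2300 (13.2% of tested genes) rose and 2215 (12.7%) fell. Most changes were small. The median size among these genes was 0.41 on the log2 scale, and 418 genes (2.4% of those tested) changed at least 2-fold, 252 upward and 166 downward, 378 of them protein-coding. Only 28 rose and 15 fell at least 4-fold. The libraries of 0 h and 8 h did not overlap in TPM for 8031 tested genes (46%), and for 4213 of the 4515. The split between higher and lower depended on scaling: it was 2764 higher to 1683 lower with library totals in place of TMM factors, 1516 to 2745 with 4 reference genes as library size, and 1997 to 1319 on log2(TPM + 1). Below, a level that goes from one value to another is that of 0 h and then that of 8 h, given as the mean ± SD or as the 3 libraries in turn. Counts of list members stand beside the shares of all tested genes, 13.2% up, 12.7% down and 25.9% in all. Log2 changes come from counts and can differ from those of the TPM means. The plot of all tested genes by level shows the large changes of well expressed genes on both sides of 0.

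**Figure D1:**
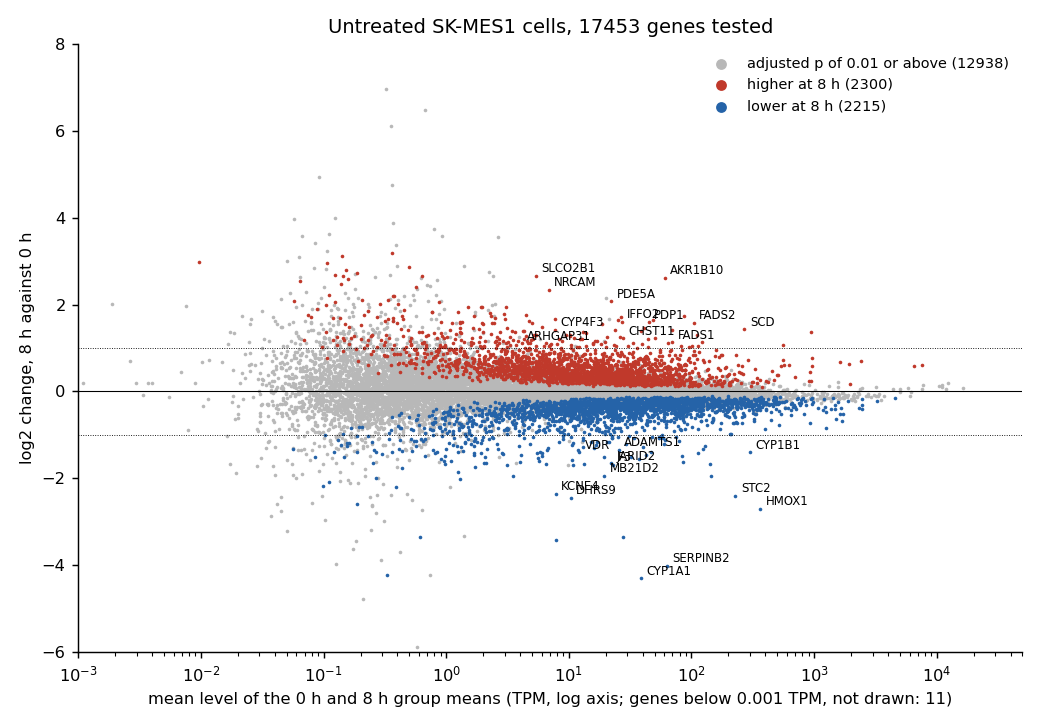
Each point is a tested gene in untreated SK-MES1 cells, with the mean of the 0 h and 8 h levels in TPM on a log axis against the limma voom log2 change at 8 h; red points passed an adjusted p of 0.01 and were higher, blue points passed and were lower, grey points did not pass, and dotted lines mark 2-fold. CYP1A1 and SERPINB2 lie lowest among the labelled genes, at -4.30 and -4.02, and SLCO2B1 and AKR1B10 highest, at 2.67 and 2.61.

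The leading falls joined genes of xenobiotic metabolism, proteolysis and heme breakdown. CYP1A1 (ENSG00000140465, chr15:74719542-74725536 of GRCh38, minus strand), a cytochrome P450 of xenobiotic metabolism and a classic target of the aryl hydrocarbon receptor, stood at 73.3, 75.1 and 71.4 TPM at 0 h and 4.14, 4.81 and 3.53 TPM at 8 h. Every 8 h library was more than an order of magnitude below every 0 h library (limma voom log2 change -4.30 ± 0.07 SE, adjusted p = 3.1e-20). CYP1B1, a related P450 under the same receptor, fell from 431, 455 and 414 TPM to 165, 171 and 174 TPM (limma voom log2 change -1.40 ± 0.05 SE, adjusted p = 7.9e-15). A pair of further known targets of that receptor, picked after their values had been seen, also fell without overlap. AHRR, its repressor, fell from 21.5 ± 2.8 TPM to 10.4 ± 0.11 TPM (log2 change -1.29). TIPARP, an ADP-ribosyltransferase that it induces, fell from 92.6 ± 9.2 TPM to 51.1 ± 1.8 TPM (log2 change -0.90). None of the gene lists held the targets of this receptor, so the genes named here do not stand for its targets as a set. SERPINB2 (ENSG00000197632, chr18:63871692-63903888 of GRCh38, plus strand), the plasminogen activator inhibitor of type 2, was at 121, 131 and 105 TPM at 0 h and 7.82, 7.51 and 7.45 TPM at 8 h (limma voom log2 change -4.02 ± 0.08 SE, adjusted p = 2.9e-18). HMOX1, heme oxygenase 1, was the most abundant of the leading genes at 0 h, at 598, 568 and 718 TPM at 0 h and 98.5, 97.6 and 103 TPM at 8 h, and its groups were far apart (limma voom log2 change -2.70 ± 0.09 SE, adjusted p = 5.9e-15). STC2, a secreted stanniocalcin, went from 409.7, 339.5 and 391 TPM to 80.9, 72.2 and 75.5 TPM (limma voom log2 change -2.40 ± 0.05 SE, adjusted p = 7.7e-18).

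The other leading falls were of genes of varied roles. JARID2, a cofactor of the Polycomb repressive complex 2, had the smallest standard error of the leading genes, at 33.02, 32.9 and 33.9 TPM at 0 h and 11.01, 10.8 and 11.1 TPM at 8 h (limma voom log2 change -1.65 ± 0.03 SE, adjusted p = 5.2e-19). VDR, the vitamin D receptor, stood at 16.9, 17.98 and 17.8 TPM at 0 h and 6.55, 6.79 and 6.63 TPM at 8 h (log2 change -1.40). F3, tissue factor, the starter of coagulation, stood at 33.00, 34.3 and 36.2 TPM at 0 h and 10.9, 10.3 and 11.7 TPM at 8 h (log2 change -1.68). In both genes the lowest 0 h library was more than 2-fold above the highest 8 h library. DHRS9, a retinol dehydrogenase, fell from 17.1 ± 1.5 TPM to 3.69 ± 0.46 TPM (log2 change -2.44). ADAMTS1, a secreted metalloprotease, fell from 36.1 ± 3.4 TPM to 14.7 ± 0.88 TPM (log2 change -1.34). MB21D2 fell from 30.7 ± 1.2 TPM to 8.21 ± 0.18 TPM (log2 change -1.95). KCNE4, a subunit that modulates potassium channels, fell from 11.9 ± 0.49 TPM to 3.68 ± 0.49 TPM, with a log2 change of -2.35 from counts and of -1.70 from the TPM means. SIPA1L2, picked for the size of its fall after its values had been seen, was at 49.3, 48.05 and 52.7 TPM at 0 h and 5.42, 5.31 and 5.05 TPM at 8 h (log2 change -3.34).

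Among the leading rises were enzymes of carbonyl, lipid and pyruvate metabolism. AKR1B10 (ENSG00000198074, chr7:134527567-134541412 of GRCh38, plus strand), an aldo-keto reductase that detoxifies lipid aldehydes, rose from 15.3, 18.2 and 17.4 TPM to 100.1, 104 and 107 TPM, with all 8 h libraries at least 5-fold above the 0 h libraries (limma voom log2 change 2.61 ± 0.08 SE, adjusted p = 1.4e-15). PDP1, the phosphatase that activates pyruvate dehydrogenase, rose from 22.05, 21.6 and 20.7 TPM to 66.3, 67.9 and 70.1 TPM (log2 change 1.59). PDE5A, the phosphodiesterase that degrades cyclic GMP, rose from 9.48, 11.6 and 9.41 TPM to 35.5, 32.4 and 34.4 TPM (log2 change 2.08 from counts, larger than that of the TPM means). The 8 h libraries of both genes exceeded the highest 0 h library by more than 2-fold. SLCO2B1, an organic anion transporter of the cell membrane, started low and rose from 1.24 ± 0.14 TPM to 9.503 ± 0.34 TPM (limma voom log2 change 2.67 ± 0.11 SE, adjusted p = 3.9e-13). NRCAM, a neuronal cell adhesion molecule, rose from 2.31 ± 0.52 TPM to 11.4 ± 1.1 TPM (log2 change 2.34). CYP4F3, a fatty acid and leukotriene hydroxylase, rose from 4.34 ± 1.2 TPM to 11.01 ± 0.66 TPM (log2 change 1.42). CHST11, a chondroitin sulfotransferase, rose from 16.3 ± 1.3 TPM to 38.5 ± 1.2 TPM (log2 change 1.22). ARHGAP31, which inactivates Cdc42 and Rac, rose from 2.59 ± 0.20 TPM to 5.63 ± 0.31 TPM (log2 change 1.11). IFFO2 rose from 13.4 ± 0.50 TPM to 40.8 ± 2.0 TPM (log2 change 1.60). The remaining leading rises were SCD, FADS1 and FADS2, which belong to the lipid genes described next.

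**Figure D2:**
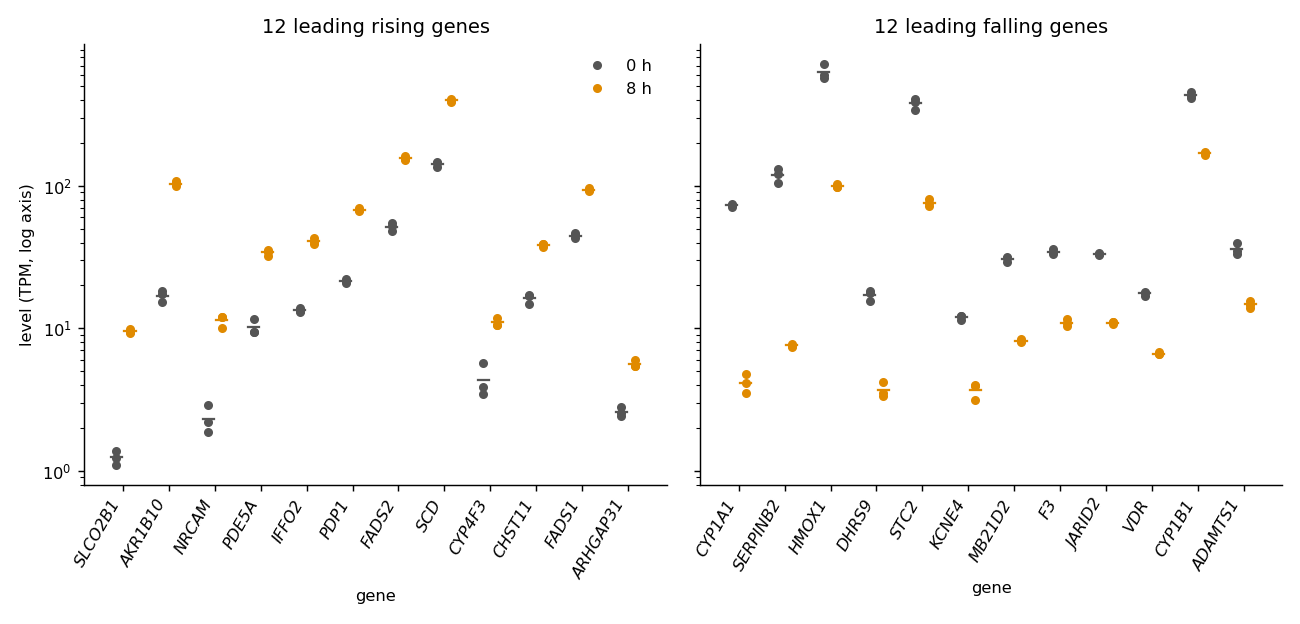
Levels in TPM on a log axis in each of the 3 untreated libraries at 0 h (grey) and at 8 h (orange), with a bar at the group mean, for the 12 rising and 12 falling protein-coding genes with the lowest p among those changed at least 2-fold. The groups do not overlap in any gene, which the choice of the genes required, and SLCO2B1 has the lowest 0 h level, with a mean of 1.24 TPM.

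Genes of cholesterol synthesis and uptake rose almost as a whole. Of 25 tested members 22 rose and 0 fell (23 had an unadjusted p below 0.05), with a median log2 change of 0.63 against 0.004 over all tested genes, and between 20 and 23 rose under the alternative settings. Their summed level went from 1621 ± 37 TPM to 2535 ± 33 TPM (SD, n = 3). HMGCS1, the synthase that makes HMG-CoA, rose from 64.1, 72.4 and 75.2 TPM to 146, 159 and 160.04 TPM (limma voom log2 change 1.05 ± 0.10 SE, adjusted p = 5.8e-08). SQLE, squalene epoxidase, stood at 48.6, 55.4 and 54.1 TPM at 0 h and 112, 110.2 and 114 TPM at 8 h (log2 change 1.05). The 0 h and 8 h libraries were separate in both genes. FDFT1, squalene synthase, rose by 0.79 on the log2 scale. INSIG1, which retains SREBP in the endoplasmic reticulum, rose from 152 ± 5.8 TPM to 201 ± 2.2 TPM (log2 change 0.36).

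The fatty acid genes went the same way. Of 13 tested members of fatty acid synthesis and desaturation 10 rose and 0 fell (median log2 change 0.56), and the summed level went from 1006 ± 9 TPM to 1699 ± 14 TPM. SCD, the stearoyl-CoA desaturase, was the most abundant of those named, at 136, 147 and 146 TPM at 0 h and 391, 396 and 407 TPM at 8 h (limma voom log2 change 1.43 ± 0.06 SE, adjusted p = 4.9e-13). The desaturases of polyunsaturated fatty acids rose as well. FADS2 rose from 54.7, 48.5 and 52.2 TPM to 152, 163 and 153 TPM (log2 change 1.59). FADS1 rose from 46.5, 44.9 and 42.9 TPM to 92.2, 94.2 and 96.6 TPM (log2 change 1.13). FASN, fatty acid synthase, rose from 107 ± 14.9 TPM to 208 ± 2.8 TPM (log2 change 0.96). SREBF1, which encodes the SREBP-1 factor, rose from 54.5 ± 6.8 TPM to 79.4 ± 7.2 TPM (log2 change 0.56, and 0.47 without 0 h replicate 2, which did not pass). Of 8 targets of LXR, the receptor for oxysterols that answers cholesterol excess, 1 rose and 2 fell. That is 37.5% against 25.9% of all tested genes, with a median of -0.07. ABCA1, the exporter of cholesterol to apolipoproteins, fell from 7.92, 8.52 and 8.65 TPM to 3.21, 3.202 and 3.43 TPM (limma voom log2 change -1.39 ± 0.07 SE, adjusted p = 1.0e-11), MYLIP, a ubiquitin ligase, fell (log2 change -0.44), and NR1H3, the receptor itself, rose (log2 change 0.60).

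Genes of growth factor signalling moved in both directions. Of 26 immediate-early and AP-1 genes 7 rose and 7 fell, with a median of -0.06. EGR1, a zinc finger factor that ERK switches on within minutes, fell from 20.2, 19.4 and 20.6 TPM to 6.41, 6.91 and 6.33 TPM (limma voom log2 change -1.66 ± 0.08 SE, adjusted p = 8.3e-13). ATF3, a stress-induced bZIP factor, fell from 8.52, 9.55 and 7.86 TPM to 3.41, 3.46 and 3.48 TPM (log2 change -1.49). KLF4 fell from 26.9 ± 1.2 TPM to 14.9 ± 0.69 TPM (log2 change -0.90). FOS, low throughout, fell from 2.04 ± 0.34 TPM to 1.33 ± 0.14 TPM (log2 change -0.74, not past the threshold on log2(TPM + 1)). JUN was at 38.2 ± 2.1 TPM at 0 h and 38.1 ± 0.53 TPM at 8 h and FOSL1 at 118 ± 10.04 TPM at 0 h and 111 ± 2.0 TPM at 8 h, and neither passed the test. ZFP36L1, which destabilises AU-rich mRNAs, rose from 83.8 ± 7.6 TPM to 138 ± 5.3 TPM (log2 change 0.74).

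Feedback genes of the ERK pathway, listed together with ETS genes, rose more often than they fell. Of 19 tested members of this list 12 rose and 2 fell (median 0.56), and between 10 and 12 rose under the alternative settings. SPRY1, a Sprouty inhibitor of receptor signalling, rose from 1.95, 1.86 and 2.19 TPM to 7.34, 6.75 and 6.76 TPM (limma voom log2 change 1.75 ± 0.10 SE, adjusted p = 3.5e-11), with the highest 0 h library far below the lowest 8 h library. DUSP5, a nuclear phosphatase of ERK, rose from 9.28, 9.19 and 11.1 TPM to 22.2, 23.2 and 22.9 TPM (log2 change 1.17), and SPRY2 (log2 change 0.56) and SPRY4 (log2 change 0.59) rose by less. DUSP6, the cytoplasmic ERK phosphatase, stood at 7.43 ± 0.74 TPM at 0 h and 7.71 ± 0.75 TPM at 8 h and did not pass, and DUSP1, which dephosphorylates several MAP kinases, fell (log2 change -0.37). Among 14 genes of the EGF receptor family and its ligands 6 rose and 2 fell. Those that fell were EREG, epiregulin, from 199.98, 235 and 195 TPM to 70.96, 71.9 and 70.7 TPM (limma voom log2 change -1.67 ± 0.09 SE, adjusted p = 6.3e-12), and EGFR itself, from 66.1, 64.5 and 65.5 TPM to 53.1, 53.4 and 51.6 TPM (log2 change -0.35). AREG (log2 change 0.33) and HBEGF (log2 change 0.35, and 0.31 without 8 h replicate 3, which did not pass), a pair of other ligands of that receptor, rose, as did ERRFI1, an inhibitor of the receptor's kinase, from 19.6 ± 2.2 TPM to 41.5 ± 0.48 TPM (log2 change 1.06). HBEGF also did not pass with 4 reference genes as library size (log2 change 0.27) or with only the libraries compared (log2 change 0.35).

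Targets of SRF and of YAP and TAZ, which respond to actin tension and cell density, were mixed. Of 23 SRF and actin genes 2 rose and 4 fell, a share of 26.1% that is near the 25.9% of all tested genes, and SRF was at 14.1 ± 0.91 TPM at 0 h and 14.3 ± 0.19 TPM at 8 h. Of 17 YAP and TAZ targets 6 rose and 4 fell. CCN1, a matricellular protein, rose from 13.5, 15.4 and 15.7 TPM to 30.8, 32.5 and 33.3 TPM (log2 change 1.07). CCN2, its close relative, was at 11.1 ± 0.81 TPM at 0 h and 13.1 ± 0.36 TPM at 8 h and missed the threshold (limma voom adjusted p = 0.012). CCN2 passed without 0 h replicate 3 (log2 change 0.25), with DESeq2 (0.19), with library totals (0.24) and on log2(TPM + 1) (0.23). It also passed with upper-quartile factors, a minimum of 50 counts, log2(TPM + 0.1) and the replicate block in all libraries.

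Genes of mitosis fell together. Of 40 tested G2/M and mitosis genes 37 fell and 1 rose, with a median log2 change of -0.52, and between 29 and 38 fell under the alternative settings. PLK1, the Polo kinase of mitotic entry, stood at 136, 138 and 129 TPM at 0 h and 97.3, 97.3 and 90.6 TPM at 8 h (limma voom log2 change -0.57 ± 0.06 SE, adjusted p = 1.5e-07). CCNB1, cyclin B1, stood at 299, 341 and 312 TPM at 0 h and 220.4, 229.6 and 219.9 TPM at 8 h (log2 change -0.57). AURKA, the centrosomal Aurora kinase, stood at 87.9, 95.4 and 91.7 TPM at 0 h and 63.8, 60.8 and 64.3 TPM at 8 h (log2 change -0.57). CDC20, which activates the anaphase-promoting complex, stood at 229, 207 and 225 TPM at 0 h and 154, 164 and 151 TPM at 8 h (log2 change -0.54). In each of these genes the 8 h libraries lay below the lowest 0 h library, by less than 2-fold. MKI67, the proliferation marker Ki-67, fell from 46.5 ± 1.2 TPM to 38.6 ± 0.27 TPM (log2 change -0.29). UBE2C, the ubiquitin-conjugating enzyme that works with the same complex, was the single riser, at 217, 211 and 209 TPM at 0 h and 286, 291 and 295 TPM at 8 h (limma voom log2 change 0.44 ± 0.06 SE, adjusted p = 3.6e-06). Of 42 genes of the G1/S transition and DNA replication 22 fell and 2 rose, with a median of -0.20, and between 8 and 28 fell under the alternatives. RRM2, a subunit of ribonucleotide reductase, fell from 312 ± 2.7 TPM to 204 ± 1.4 TPM (log2 change -0.72). E2F7, a repressive E2F, fell from 40.9 ± 2.0 TPM to 17.97 ± 0.40 TPM (log2 change -1.21). CCNE2, cyclin E2, fell from 11.8 ± 1.9 TPM to 8.76 ± 0.43 TPM (log2 change -0.65, not past the threshold on log2(TPM + 1)). PCNA, the replication clamp, fell slightly from 224 ± 8.7 TPM to 199.96 ± 4.5 TPM (log2 change -0.20). It did not pass without 0 h replicate 2 or 8 h replicate 3 (log2 change -0.19 to -0.18). Nor did it pass with library totals, on log2(TPM + 1) or on log2(TPM + 0.1) (log2 change -0.16 in each). CDC6, which loads the replicative helicase, was at 77.1 ± 1.9 TPM at 0 h and 75.9 ± 0.74 TPM at 8 h and did not pass. It did pass as a fall with DESeq2, DESeq2 size factors or the 0 h libraries of both arms as baseline (log2 change -0.16 to -0.15). CCND1, cyclin D1, was among the 2 that rose, although its libraries overlapped, from 199 ± 23.9 TPM to 212 ± 9.0 TPM (log2 change 0.16). It did not pass in 5 of 6 fits that left out a library (log2 change 0.12 to 0.16). Nor did CCND1 pass with 4 reference genes as library size (0.08), length-scaled counts (0.07) or on log2(TPM + 1) (0.10). The same held with only the libraries compared (0.15) and with the 0 h libraries of both arms as baseline (0.10).

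The promoters of many mitotic genes carry the cell cycle homology region, TTTGAA on either strand, which is bound by the DREAM and MMB complexes. In the 250 bases before the RefSeq gene start (GRCh38.p14), TTTGAA was found on either strand in 19 of the 35 G2/M genes with a promoter entry (54.3%). The share over all 27305 genes with an entry was 16.1%. The search took in bases inside annotated exons, and the windows of HMMR, PLK1 and PRC1 lay wholly in exons. In ANLN, BUB1B, CDC25C, CDCA8, CENPA and KIF23 the longest stretch outside exons held no match. The E2F motif TTTGGCGC was found in 6 of 35 G1/S genes (17.1%) and in 0.681% of all genes with an entry. Among those 6 was DTL, whose window lay wholly in exons. The promoters of CDC20 and MKI67 are shown as members of the mitotic list whose windows were searched by rule, that of CCNB2 for a match close to the start, and that of E2F1 for the E2F motif, each 5′ to 3′ on the strand of its gene and up to the gene start (in CCNB2 up to the nearest exon before it), with matches in capitals. CCNB2 and E2F1 were picked for display after the matches had been seen. The stretch of CDC20 is chr1:43358731-43358980 on the plus strand, that of MKI67 chr10:128126424-128126673 on the minus strand, that of CCNB2 chr15:59104896-59105125 on the plus strand and that of E2F1 chr20:33686386-33686635 on the minus strand.
CDC20: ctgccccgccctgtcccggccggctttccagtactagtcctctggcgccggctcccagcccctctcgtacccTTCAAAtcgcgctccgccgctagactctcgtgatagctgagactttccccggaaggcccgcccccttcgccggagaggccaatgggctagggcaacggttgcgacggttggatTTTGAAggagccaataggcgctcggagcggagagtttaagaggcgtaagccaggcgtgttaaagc
MKI67: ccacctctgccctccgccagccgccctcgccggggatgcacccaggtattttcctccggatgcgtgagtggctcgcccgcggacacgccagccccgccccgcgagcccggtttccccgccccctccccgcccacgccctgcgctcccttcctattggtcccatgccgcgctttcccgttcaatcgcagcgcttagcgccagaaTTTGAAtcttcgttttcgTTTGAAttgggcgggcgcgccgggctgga
CCNB2: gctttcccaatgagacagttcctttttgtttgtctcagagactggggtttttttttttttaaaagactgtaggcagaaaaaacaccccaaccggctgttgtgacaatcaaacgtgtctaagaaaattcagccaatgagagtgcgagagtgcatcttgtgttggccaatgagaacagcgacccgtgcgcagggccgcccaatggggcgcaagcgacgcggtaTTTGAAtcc
E2F1: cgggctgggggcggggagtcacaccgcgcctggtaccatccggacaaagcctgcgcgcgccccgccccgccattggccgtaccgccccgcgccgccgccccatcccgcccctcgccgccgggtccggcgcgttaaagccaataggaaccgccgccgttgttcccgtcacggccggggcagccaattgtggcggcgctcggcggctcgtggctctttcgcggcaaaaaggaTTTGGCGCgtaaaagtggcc
The match nearest the start began 65 bases before it in CDC20 and 29 bases before it in MKI67 and CCNB2, and the E2F match of E2F1 began 20 bases before the start. CDC20 had a second match at 178 bases, on the other strand, and MKI67 at 47 bases. CCNB2, cyclin B2, went from 107 ± 6.2 TPM to 68.1 ± 1.6 TPM (log2 change -0.70). E2F1 fell from 45.4 ± 3.5 TPM to 35.9 ± 1.3 TPM (log2 change -0.38). These matches describe letters in a window and do not show binding. The core of the sterol response element, TCACNCCAC, was found in 1 of 18 cholesterol genes with an entry (5.56%, against 1.09% of all genes with an entry) and in 0 of 12 fatty acid genes. The cholesterol gene with a match was SREBF2, whose window lay wholly in exons.

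**Figure D3:**
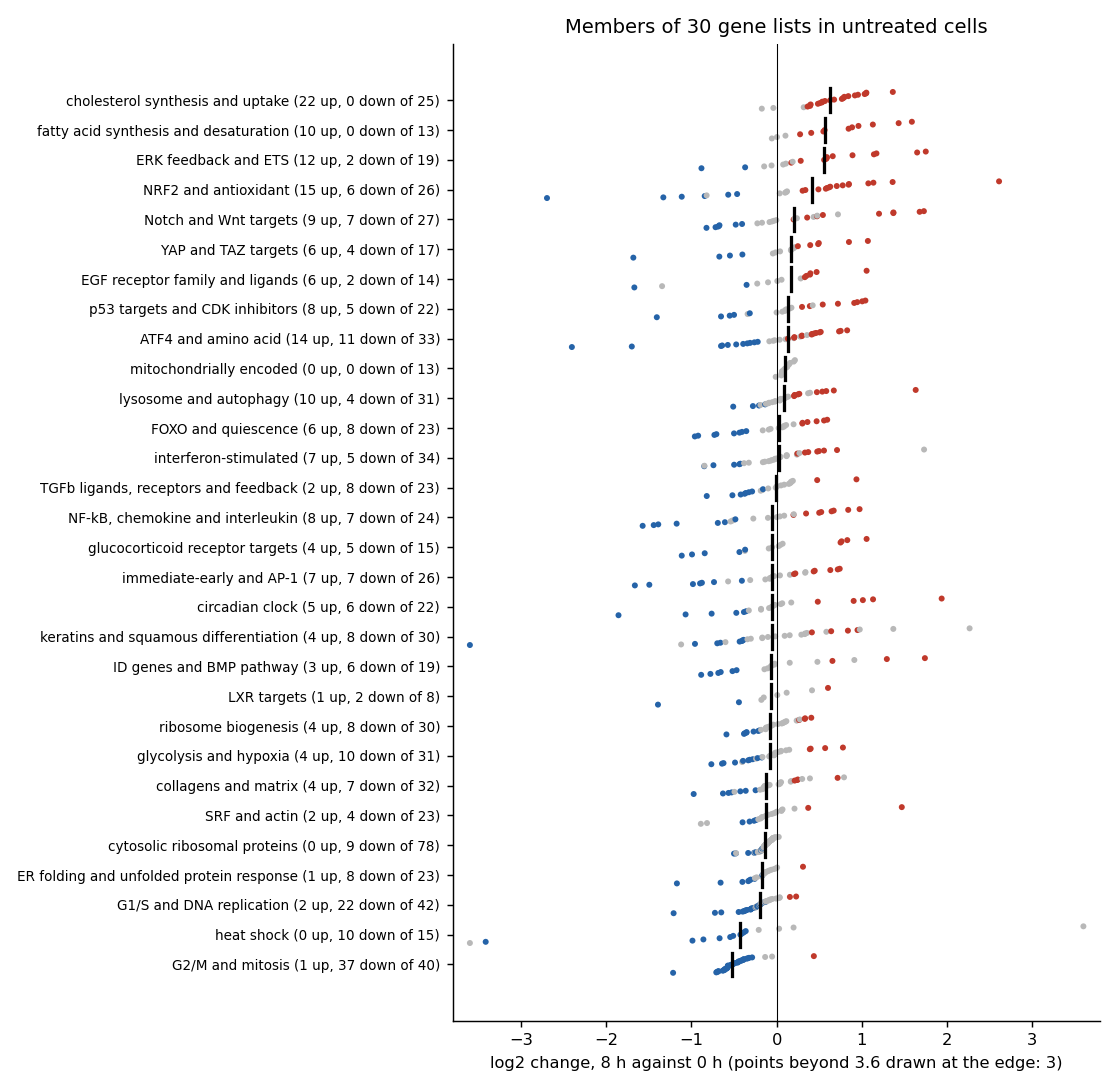
Each point is a tested member of a gene list with its limma voom log2 change at 8 h in untreated cells, red where it rose, blue where it fell and grey where it did not pass an adjusted p of 0.01; the black bar is the list's median and the counts stand beside each name. The cholesterol and fatty acid lists have the highest medians, 0.63 and 0.56, and the G2/M list the lowest, -0.52.

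Inhibitors of the cell cycle moved both ways. Of 22 p53 targets and CDK inhibitors 8 rose and 5 fell. CDKN1A, the p21 inhibitor, fell from 172, 154 and 164 TPM to 63.6, 62.8 and 64.00 TPM (limma voom log2 change -1.41 ± 0.06 SE, adjusted p = 3.9e-13). CDKN1B, p27, fell from 40.9, 44.2 and 41.9 TPM to 25.1, 26.6 and 27.7 TPM (limma voom log2 change -0.73 ± 0.04 SE, adjusted p = 4.9e-12), with separate libraries in both. CDKN1C, p57, rose from 3.17 ± 0.80 TPM to 6.28 ± 0.88 TPM (log2 change 1.00) but did not pass in 4 of 6 fits that left out a library (log2 change 0.75 to 1.03). GDF15, a stress-induced cytokine, rose from 46.5 ± 6.8 TPM to 89.7 ± 3.1 TPM (log2 change 0.95). PLK2 rose from 405 ± 13.1 TPM to 711 ± 8.2 TPM (log2 change 0.72). PLK3 rose from 4.700 ± 0.54 TPM to 8.99 ± 0.46 TPM (log2 change 1.04). MDM2, the ligase of p53, was at 19.5 ± 3.9 TPM at 0 h and 18.5 ± 1.5 TPM at 8 h and did not pass. Among 23 FOXO targets and quiescence genes 6 rose and 8 fell. TXNIP, an inhibitor of glucose uptake, fell from 29.9 ± 1.9 TPM to 16.4 ± 1.3 TPM (log2 change -0.92). IRS2, the insulin receptor substrate, fell from 9.802 ± 0.25 TPM to 7.65 ± 0.37 TPM (log2 change -0.41). CCNG2, the quiescence-linked cyclin G2, fell from 41.98 ± 4.1 TPM to 25.6 ± 0.70 TPM (log2 change -0.71). CITED2 rose from 41.6 ± 1.2 TPM to 63.4 ± 1.5 TPM (log2 change 0.56).

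Chaperone genes fell. Of 15 heat shock genes 10 fell and 0 rose, with a median of -0.43. HSPA6, an HSP70 that is nearly silent without stress, fell from 12.5, 12.8 and 17.8 TPM to 1.26, 1.61 and 1.28 TPM (limma voom log2 change -3.41 ± 0.20 SE, adjusted p = 4.8e-11). HSPA8, the constitutive HSP70, fell from 1915, 2179.7 and 2096 TPM to 1326, 1336 and 1327 TPM (log2 change -0.67). DNAJB1 fell from 275 ± 10.7 TPM to 146 ± 1.3 TPM (log2 change -0.99). HSPH1 fell from 218 ± 22.8 TPM to 124 ± 1.0 TPM (log2 change -0.86). The inducible HSP70 genes of the HLA region are near-identical copies between which reads can be split, and they are not described. Of 23 genes of endoplasmic reticulum folding and the unfolded protein response 8 fell and 1 rose, 39.1% in all against 25.9% of all tested genes. HSPA5, the chaperone BiP, was at 279.5 ± 15.3 TPM at 0 h and 259 ± 4.8 TPM at 8 h and did not pass. It did pass as a fall with DESeq2 (log2 change -0.17) and with the 0 h libraries of both arms as baseline (-0.19). PPP1R15A, which restores translation after stress, fell from 28.8 ± 1.8 TPM to 13.3 ± 0.38 TPM (log2 change -1.17).

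Antioxidant genes under NRF2 divided. Of 26 tested members 15 rose and 6 fell (median 0.41), and HMOX1 and AKR1B10, described above, were the members that fell and rose furthest. NQO1, a quinone reductase, rose from 1809, 1812 and 1848 TPM to 2964, 3031 and 3073 TPM (limma voom log2 change 0.71 ± 0.03 SE, adjusted p = 2.7e-13) without overlap. AKR1C3 rose from 340.4, 340.4 and 373 TPM to 726, 757 and 779.99 TPM (log2 change 1.08). TXNRD1, thioredoxin reductase, rose from 131 ± 4.7 TPM to 211 ± 4.2 TPM (log2 change 0.49 from counts, smaller than that of the TPM means). GCLM, the modifier subunit of the enzyme that starts glutathione synthesis, fell from 207, 241 and 234 TPM to 154, 165 and 164 TPM (log2 change -0.57). SRXN1, sulfiredoxin, fell from 252 ± 4.3 TPM to 189 ± 2.3 TPM (log2 change -0.46). MT1X, a metallothionein, fell from 82.4 ± 2.3 TPM to 38.5 ± 2.7 TPM (log2 change -1.11). The reads of AKR1C3 and MT1X can be shared with close paralogs, which makes their levels less certain. Of 33 ATF4 and amino acid genes 14 rose and 11 fell, with log2 changes from -2.40 (STC2, described above) to 0.83. ASNS, asparagine synthetase (log2 change 0.52), SLC38A2, a glutamine carrier (log2 change 0.73), and TRIB3 (log2 change 0.44) rose, and DDIT3, the factor CHOP, fell (log2 change -0.34, and -0.30 without 8 h replicate 2, which did not pass).

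Genes of glycolysis and the hypoxia response, taken as a joint list, moved both ways. Of 31 members 10 fell and 4 rose, 45.2% in all against 25.9% of all tested genes, with a median of -0.08. Their summed level went from 22016 ± 638 TPM to 21231 ± 220 TPM. SLC2A1, the glucose transporter GLUT1, fell from 685, 585 and 667 TPM to 382, 379.98 and 395 TPM (limma voom log2 change -0.77 ± 0.06 SE, adjusted p = 1.4e-09). LDHA, lactate dehydrogenase, fell from 1682 ± 104 TPM to 1291 ± 9.3 TPM (log2 change -0.39). VEGFA rose from 50.4 ± 2.3 TPM to 73.8 ± 3.2 TPM (log2 change 0.57). Of 30 genes of ribosome biogenesis 8 fell and 4 rose, 40% in all against 25.9% of all tested genes, with a median of -0.07. Of 78 cytosolic ribosomal proteins 9 fell and 0 rose (11.5% called, below the share of all tested genes, with a median of -0.13). The ribosomal protein count depended on scaling, with between 4 and 42 members lower under the alternatives. None of 13 mitochondrially encoded genes passed, and 3 had an unadjusted p below 0.05. Of 31 lysosome and autophagy genes 10 rose and 4 fell, 45.2% in all, with a median of 0.09. TFEB, the factor that drives lysosomal genes, rose from 2.15, 2.19 and 2.65 TPM to 7.14, 7.58 and 6.58 TPM (limma voom log2 change 1.63 ± 0.11 SE, adjusted p = 3.9e-10). CTSD, cathepsin D, rose from 753 ± 59.98 TPM to 1166 ± 31.03 TPM (log2 change 0.58, and 0.51 without 0 h replicate 2, which did not pass) and SQSTM1, the autophagy receptor p62, from 1274 ± 156 TPM to 1995 ± 36.7 TPM (log2 change 0.67).

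Genes of the TGFβ and BMP pathways changed in cells that received neither ligand. ID1, an inhibitor of bHLH factors and a direct target of BMP signalling, rose from 39.3, 38.7 and 40.3 TPM to 136, 142 and 128 TPM (limma voom log2 change 1.74 ± 0.11 SE, adjusted p = 1.8e-10). ID3 rose from 64.7, 59.6 and 64.7 TPM to 167, 161 and 150.1 TPM (limma voom log2 change 1.29 ± 0.11 SE, adjusted p = 1.8e-08). ID2 went the other way, from 30.5 ± 4.2 TPM to 21.8 ± 0.34 TPM (log2 change -0.52). The groups were separate in each of the 3 genes. Of 19 tested members of the ID and BMP list 3 rose and 6 fell, and the third riser was the ligand BMP2, from 0.825 ± 0.031 TPM to 1.35 ± 0.088 TPM (log2 change 0.65). Of 23 genes of TGFβ ligands, receptors and feedback 2 rose and 8 fell, 43.5% in all against 25.9% of all tested genes, with a median of -0.01. TGFB2, a ligand, rose from 15.6 ± 2.5 TPM to 22.8 ± 1.0 TPM (log2 change 0.48). SKIL, a SMAD corepressor, rose from 7.09 ± 0.84 TPM to 10.9 ± 0.47 TPM (log2 change 0.94 from counts, larger than that of the TPM means). PMEPA1, a feedback inhibitor (log2 change -0.29, not past the threshold on log2(TPM + 1)), SMAD3 (log2 change -0.38) and LTBP1, which tethers latent TGFβ (log2 change -0.52), fell. SMAD7, the inhibitory SMAD, was at 6.81 ± 0.91 TPM at 0 h and 7.37 ± 0.29 TPM at 8 h and did not pass, although it did as a rise with library totals (log2 change 0.20).

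The clock genes moved in opposite directions. Of 22 tested, 5 rose and 6 fell. PER2, a repressor, rose from 1.91, 1.79 and 2.38 TPM to 4.699, 4.23 and 4.102 TPM (limma voom log2 change 1.13 ± 0.08 SE, adjusted p = 1.7e-09). NR1D1, the repressor REV-ERBα, fell from 32.5, 28.7 and 30.04 TPM to 14.5, 15.05 and 15.3 TPM (limma voom log2 change -1.07 ± 0.09 SE, adjusted p = 7.5e-09). HLF, a bZIP output factor, fell from 1.98 ± 0.30 TPM to 0.515 ± 0.13 TPM (log2 change -1.86). BHLHE40 rose from 24.8 ± 3.0 TPM to 47.8 ± 2.1 TPM (log2 change 1.01), BMAL1 fell slightly with overlapping libraries and did not pass on log2(TPM + 1) (log2 change -0.36), and DBP and PER1 did not pass. NR3C1, the glucocorticoid receptor, fell from 75.01, 78.95 and 75.03 TPM to 40.5, 39.2 and 38.4 TPM (limma voom log2 change -0.99 ± 0.07 SE, adjusted p = 9.2e-10), among 15 genes of its response of which 4 rose and 5 fell. FKBP5, a sensitive target of that receptor, was at 6.55 ± 0.51 TPM at 0 h and 6.98 ± 0.26 TPM at 8 h, and SGK1 at 9.31 ± 0.19 TPM at 0 h and 9.26 ± 0.95 TPM at 8 h, and neither passed.

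Cytokine genes were low and split. Of 24 NF-kB, chemokine and interleukin genes 8 rose and 7 fell. IL1A, interleukin 1 alpha, fell from 14.1, 17.5 and 16.1 TPM to 5.25, 5.58 and 5.64 TPM (limma voom log2 change -1.57 ± 0.10 SE, adjusted p = 1.7e-10). IL1B fell from 1.903 ± 0.030 TPM to 1.14 ± 0.15 TPM (log2 change -0.69, and -0.58 without 8 h replicate 1, which did not pass) and CXCL3 from 2.42 ± 0.27 TPM to 1.15 ± 0.061 TPM (log2 change -1.17). IL1B also did not pass with a replicate block in only the libraries compared (log2 change -0.69). NFKBIA, the inhibitor IκBα, rose from 38.9 ± 1.3 TPM to 56.8 ± 2.1 TPM (log2 change 0.50). BIRC3 rose from 5.69 ± 0.74 TPM to 11.5 ± 0.39 TPM (log2 change 0.97). Of 34 interferon-stimulated genes 7 rose and 5 fell, 35.3% in all against 25.9% of all tested genes, with a median of 0.02. STAT2 rose from 31.9 ± 2.3 TPM to 51.7 ± 0.93 TPM (log2 change 0.71). OASL fell from 29.9 ± 1.9 TPM to 17.4 ± 0.67 TPM (log2 change -0.85).

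Of 32 collagen and matrix genes 4 rose and 7 fell, 34.4% in all against 25.9% of all tested genes, with a median of -0.12. LOX, the collagen cross-linking oxidase, fell from 23.5, 28.6 and 26.3 TPM to 12.8, 13.3 and 12.9 TPM (limma voom log2 change -0.97 ± 0.06 SE, adjusted p = 1.8e-10). TIMP3, a metalloprotease inhibitor, rose from 38.96 ± 1.5 TPM to 66.1 ± 0.53 TPM (log2 change 0.72). Of 30 tested keratins and genes of squamous differentiation 4 rose and 8 fell, 40% in all, with a median of -0.06. Their log2 changes ran from -4.02 (SERPINB2, described above) to 2.26. The summed level of the list went from 7111.6 ± 175.6 TPM to 5994.8 ± 149.5 TPM. TP63, the master factor of squamous epithelium, rose from 8.49, 9.99 and 9.38 TPM to 18.2, 15.8 and 16.1 TPM (limma voom log2 change 0.84 ± 0.07 SE, adjusted p = 1.4e-08). SOX2 rose from 2.16, 1.82 and 2.101 TPM to 3.97, 3.81 and 4.33 TPM (limma voom log2 change 0.95 ± 0.11 SE, adjusted p = 5.0e-07), both without overlap. KRT17 fell from 1.32 ± 0.33 TPM to 0.699 ± 0.044 TPM (log2 change -0.96) but did not pass in 5 of 6 fits that left out a library (log2 change -0.99 to -0.82). VIM, vimentin, fell from 1859 ± 109 TPM to 1464 ± 19.1 TPM (log2 change -0.39). Of 27 Notch and Wnt targets 9 rose and 7 fell. NOTCH3 rose from 7.64 ± 1.8 TPM to 18.2 ± 1.0 TPM (log2 change 1.37). SP5, a Wnt target, rose from 2.16 ± 0.20 TPM to 8.07 ± 1.3 TPM (log2 change 1.20 from counts and 1.90 from the TPM means), while HES1, a Notch target, fell from 30.2 ± 1.2 TPM to 19.6 ± 1.0 TPM (log2 change -0.67). AXIN2, a feedback inhibitor of Wnt signalling, fell from 9.65 ± 0.66 TPM to 6.02 ± 0.27 TPM (log2 change -0.69).

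The same interval was also measured in the TGFβ arm, which shares no library with the untreated arm and in which the change includes that to the ligand. There 5905 genes (33.8%) changed from 0 h to 8 h, and 3168 changed in the same direction in both arms, which is 70.2% of the untreated and 53.7% of the TGFβ-arm genes. Another 166 went opposite ways, and 1181 passed in untreated cells alone by threshold. The difference of the changes itself passed for 1376 genes (7.88%), 881 with a higher and 495 with a lower change in the presence of TGFβ. Of the 418 genes changed at least 2-fold in untreated cells, 287 changed in the same direction with TGFβ, 12 in the opposite direction and 119 did not pass there, and the difference passed for 103. Across all tested genes the log2 changes of the arms had a Pearson correlation of 0.46, given as a description, since genes are not independent. HMOX1 fell by 2.70 on the log2 scale in untreated cells and by 2.32 with TGFβ, and NRCAM rose by 2.34 in both. The cholesterol list had 0 of 25 members with a difference past the threshold (medians 0.63 untreated and 0.55 with TGFβ), the G2/M list 5 of 40 (medians -0.52 and -0.72). In the collagen and matrix list the difference passed for 15 of 32 members (medians -0.12 and 0.22), in the SRF and actin list for 10 of 23 (-0.12 and 0.34), and in the TGFβ list for 11 of 23 (-0.01 and 0.17). ID3 rose by 1.29 without and changed by -0.59 with TGFβ, and VDR fell by 1.40 without and changed by -0.31 with TGFβ.

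**Figure D4:**
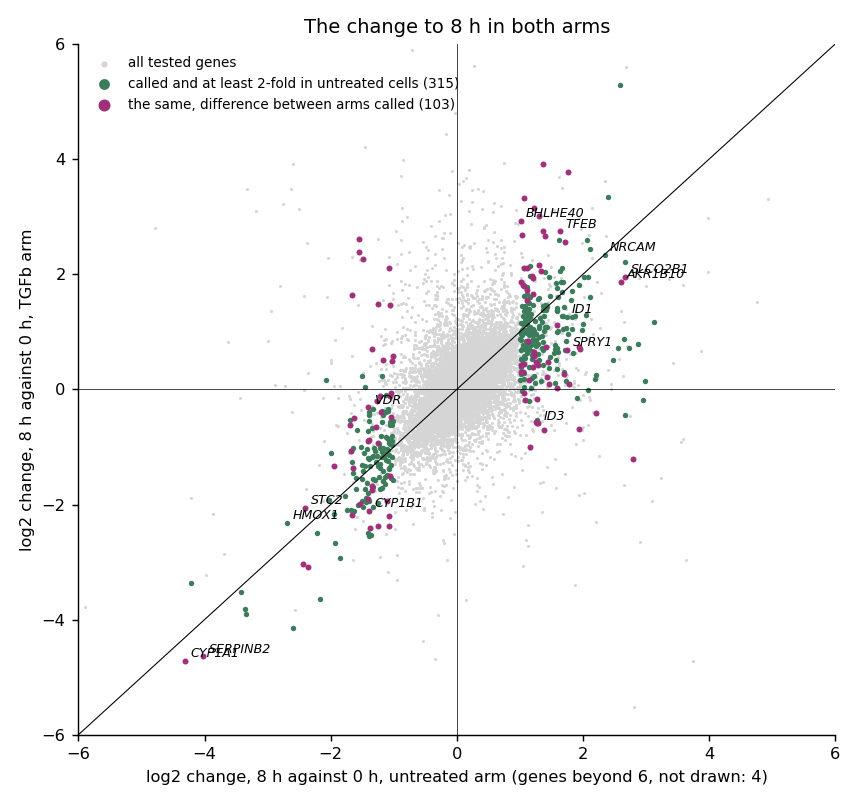
Each point is a tested gene with its limma voom log2 change from 0 h to 8 h in the untreated arm against that in the TGFβ arm; green and purple points changed at least 2-fold in untreated cells, purple ones with a difference between the arms at an adjusted p below 0.01, and the diagonal marks equal change. Purple points number 103, and ID3 and VDR lie far from the diagonal.

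The later untreated libraries, which carry another code in the deposited names than those of 0 and 8 h, show the level of these genes at 24 and 48 h. The meaning of that code is not stated, and time and code cannot be told apart, so the values are given without a test. CYP1A1 remained low, at 2.69 ± 0.23 TPM at 24 h and 3.901 ± 0.20 TPM at 48 h, and HMOX1 went on to 23.3 ± 1.3 TPM at 24 h and 13.4 ± 0.67 TPM at 48 h. SCD stood at 981 ± 51.7 TPM at 24 h and 599 ± 27.6 TPM at 48 h and HMGCS1 at 361 ± 39.4 TPM at 24 h and 178 ± 11.2 TPM at 48 h, in both cases highest at 24 h. PLK1 stood at 79.7 ± 1.5 TPM at 24 h and 25.8 ± 0.64 TPM at 48 h and MKI67 at 31.7 ± 1.1 TPM at 24 h and 11.2 ± 0.93 TPM at 48 h. TXNIP, which was lower at 8 h than at 0 h, stood at 93.8 ± 12.2 TPM at 24 h and 165 ± 1.3 TPM at 48 h, above its 0 h level of 29.9 TPM. PDP1 stood at 105 ± 6.0 TPM at 24 h and 139 ± 2.4 TPM at 48 h, above its 8 h level. AKR1B10 was at 49.3 ± 1.7 TPM at 24 h and 154 ± 4.8 TPM at 48 h, lower at 24 h than at 8 h.

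**Figure D5:**
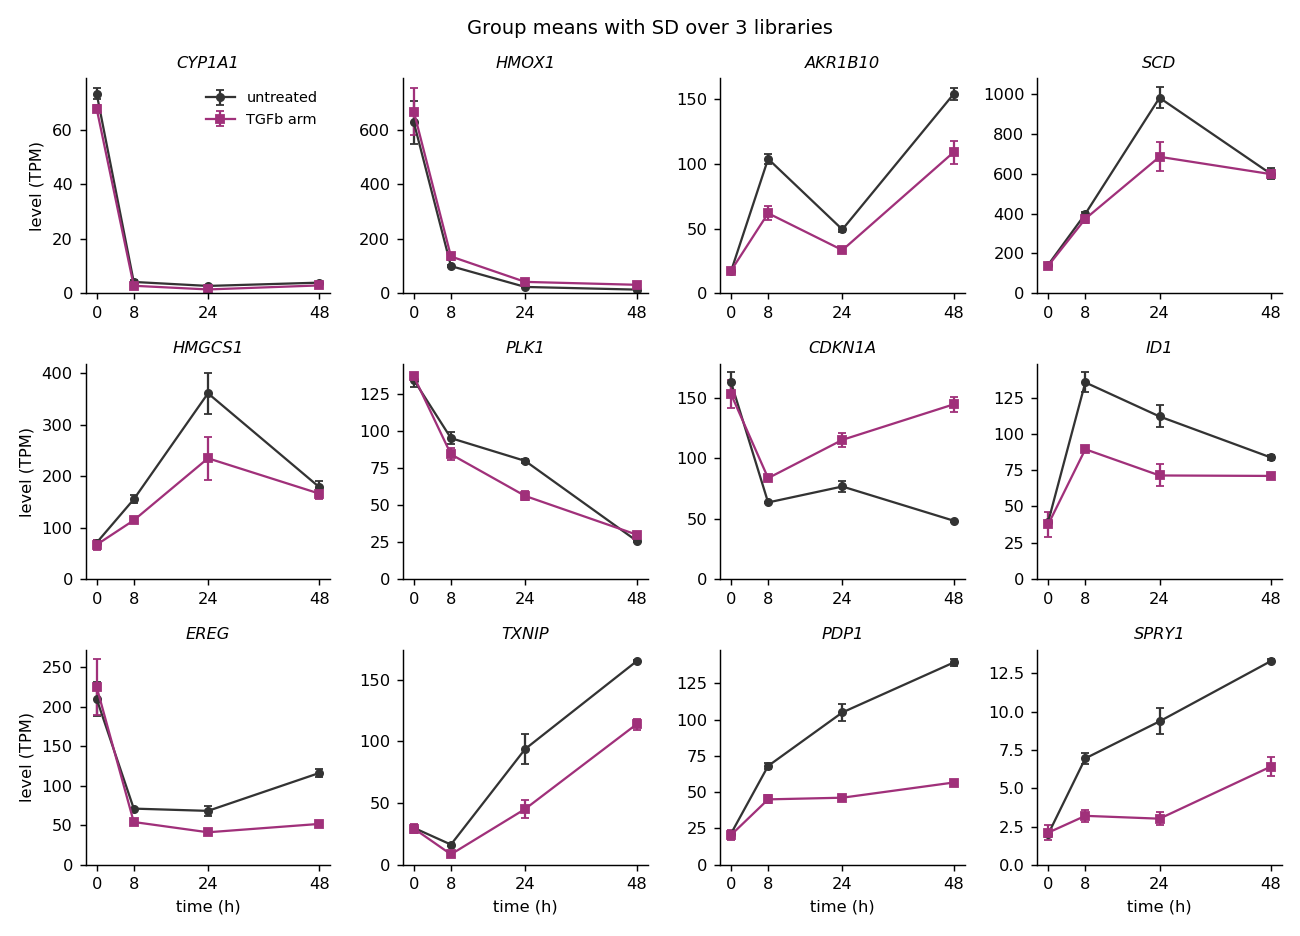
Mean level in TPM with SD over 3 libraries against time in hours for 12 genes, untreated (black circles) and in the TGFβ arm (purple squares). CYP1A1, HMOX1 and EREG have their highest mean at 0 h in both arms, and TXNIP in untreated cells is at 16.4 TPM at 8 h and 165 TPM at 48 h.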

How the data were processed

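The authors sequenced total RNA (integrity number of at least 8) on an Illumina HiSeq instrument and quantified it with kallisto 0.43.0 against Ensembl release 79 transcripts of GRCh38. They deposited, for each library and each of 173259 transcripts, the estimated counts (kallisto's expected reads per transcript, not normalized) and TPM (counts per unit of effective length, brought to one fixed sum). The deposited effective lengths served only the length-scaled alternative. Library preparation beyond standard Illumina protocols is not given in the sources used here.

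From these files, transcripts were matched to genes by identifier with GENCODE release 44, which is newer than the annotation of the authors. The 155518 matched transcripts (89.8%) carried 95.1% to 95.2% of the estimated counts of the 6 libraries, and the other 17741 were left out. For each gene the estimated counts of its transcripts were added and rounded and their TPM added, and genes with at least 10 counts in at least 3 libraries were tested with limma 3.58.1 (voom weights, TMM factors, 1 mean for each of the 8 groups of 3 libraries, all 24 libraries) in R 4.3.3. The contrasts were 8 h minus 0 h in untreated cells, the same in the TGFβ arm, and their difference. P-values were two-sided and adjusted by the Benjamini-Hochberg method over all 17453 tested genes, with a threshold of 0.01. An exact permutation test of 3 libraries against 3 cannot go below 0.1 and was not used. Pairs of replicate libraries of 0 h or 8 h differed by more than sampling noise (chi-square per gene 3.12 to 21.5 in untreated cells and 4.07 to 57.1 in the TGFβ arm, highest at 0 h), and the study describes replicates as biological. The fits were checked on simulated counts with known changes.

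The groups were defined by the sample labels. Their choice, the 30 gene lists and the rule for naming genes were made with earlier results of these data known. Named were the 12 rising and 12 falling protein-coding genes with the lowest p among those changed at least 2-fold with separate libraries and at least 5 TPM at either time, leading members of each list, up to 2 further members per direction with the lowest p, with at least 1 TPM, and the cell type markers. Genes picked outside this rule are said to be so. Some genes that met the rule are not reported here. Promoters came from RefSeq tables (GRCh38.p14), with stretches inside exons not printed. Alternatives were edgeR 4.0.16 (quasi-likelihood), DESeq2 1.42.0, other scalings, filters and units, a replicate block, fits of fewer libraries and other thresholds. Keeping unmatched transcripts as features was added after seeing the data.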

Additional observations from a re-analysis of the deposited data

Results flagged for a closer look

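The genes below were singled out because the change from 0 h to 8 h in the TGFβ arm minus that in untreated cells passed a limma voom adjusted p of 0.01. They are named genes of the report, and each value is that difference on the log2 scale, with 3 libraries per group.

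A first set of genes had log2 changes of opposite sign that passed in both arms, except GDF15, which passed in untreated cells alone (limma voom adjusted p = 0.052 with TGFβ). PMEPA1 had log2 changes of -0.29 without and 2.92 with TGFβ (difference 3.21). ID3 had log2 changes of 1.29 without and -0.59 with TGFβ (difference -1.88). SOX2 had log2 changes of 0.95 without and -0.65 with TGFβ (difference -1.60). AREG had log2 changes of 0.33 without and -0.34 with TGFβ (difference -0.67). GDF15 had log2 changes of 0.95 without and -0.47 with TGFβ (difference -1.42). CITED2 had log2 changes of 0.56 without and -0.66 with TGFβ (difference -1.22). TIMP3 had log2 changes of 0.72 without and -0.62 with TGFβ (difference -1.34). UBE2C had log2 changes of 0.44 without and -0.28 with TGFβ (difference -0.72). KRT17 had log2 changes of -0.96 without and 2.75 with TGFβ (difference 3.71). VIM had log2 changes of -0.39 without and 0.46 with TGFβ (difference 0.85). BMAL1 had log2 changes of -0.36 without and 0.83 with TGFβ (difference 1.19).

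Among genes of TGFβ feedback, YAP and TAZ, SRF, glucocorticoid response and matrix, the change was higher with TGFβ for CCN2 (2.90), SGK1 (2.52), SKIL (2.18), SMAD7 (1.94), COL1A1 (1.72), CCN1 (1.04), LOX (0.81), SRF (0.47) and LTBP1 (0.47). Genes with a negative log2 change in untreated cells and a higher change with TGFβ were VDR (1.09), JUN (1.06), E2F7 (0.82), SLC2A1 (0.77), HES1 (0.65), F3 (0.62), MB21D2 (0.62), ABCA1 (0.52), CDKN1A (0.51), HSPA5 (0.46), KLF4 (0.45), STC2 (0.35), JARID2 (0.29) and DNAJB1 (0.28). JUN and HSPA5 did not pass in untreated cells. Genes with a positive log2 change in untreated cells and a higher change with TGFβ were BHLHE40 (1.92), TFEB (1.11), HBEGF (0.82), TP63 (0.79), PLK3 (0.78), ZFP36L1 (0.63), CCND1 (0.62) and ARHGAP31 (0.61).

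The change was lower with TGFβ, from a positive log2 change in untreated cells, for DBP (-1.14), SPRY1 (-1.07), SP5 (-0.82), ERRFI1 (-0.76), AKR1B10 (-0.74), SLCO2B1 (-0.72), CYP4F3 (-0.69), PLK2 (-0.65), PDP1 (-0.48), NFKBIA (-0.46), NQO1 (-0.33) and FADS1 (-0.29). It was lower with TGFβ, from a negative log2 change in untreated cells, for IL1B (-1.64), ID2 (-1.57), TXNIP (-0.89), KCNE4 (-0.73), CYP1B1 (-0.71), PER1 (-0.70), SERPINB2 (-0.62), DHRS9 (-0.59), RRM2 (-0.55), CDKN1B (-0.54), EGR1 (-0.51), CYP1A1 (-0.42), PCNA (-0.36), ADAMTS1 (-0.34) and AURKA (-0.24). DBP and PER1 did not pass in untreated cells.

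No test of single outlying libraries was run.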

How the results depend on the processing

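The number of genes changed from 0 h to 8 h in untreated cells, 4515, ranged at this threshold from 3298 on log2(TPM + 0.1) to 5833 with the 0 h libraries of both arms as baseline, edgeR gave 4502 and DESeq2 5036, and leaving out each library in turn gave 3525 to 3909. Of the 4515, 4429 passed in the same direction with edgeR and 3024 on log2(TPM + 0.1). Other thresholds gave 6416 (adjusted p below 0.05), 418 (at least 2-fold) and 2865 (adjusted p below 0.001). The TGFβ-arm number, 5905, became 834 at 2-fold, 3202 with only the libraries compared and 2866 with the replicate block in those libraries. The number of differences between the arms, 1376, became 2128 at 0.05, 332 at 2-fold and 881 at 0.001. With log2(TPM + 0.1), 61.3% of the untreated changes were rises, with library totals 62.2% and with 4 reference genes 35.6%, against 50.9% with TMM factors. The cause of these moves was not tested beyond the fewer samples or stricter limits of some settings. With the replicate number as a block, 5091 genes passed in all libraries and 4008 in the 6 libraries compared. Without the block these numbers were 4515 and 4476. Deviations of same-numbered untreated libraries of 0 h and 8 h had correlations of 0.004, -0.03 and 0.07, so the numbers are not taken to pair those 6 libraries. Pairing among the other libraries was not checked.

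Of 3230 single-gene values under these settings 3167 kept their side of the threshold, 49 lost it, 14 gained it and 0 reversed. CCND1, KRT17 and CDKN1C lost it most often. Medians of the LXR, FOXO, interferon, NF-kB, TGFβ and ID lists, all near 0, changed sign in 1 to 5 settings each. Counting error is covered by the fit, whereas errors of read assignment between similar transcripts are not.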

Other observations

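Of the 28 genes that rose at least 4-fold in untreated cells, 6 reached 1 TPM at 8 h, and of the 15 that fell as far, 10 had reached 1 TPM at 0 h. Besides those described above, FILIP1L rose from 0.342, 0.443 and 0.344 TPM at 0 h to 1.33, 1.35 and 1.38 TPM at 8 h (log2 change 2.06), and its untreated mean was 3.804 TPM at 24 h. PIWIL2, a Piwi protein best known from the germ line, fell from 1.95, 2.17 and 2.06 TPM to 0.490, 0.604 and 0.504 TPM (log2 change -2.03). Both were picked after their values had been seen. Among the 418 genes changed at least 2-fold were 7 long non-coding RNAs and 17 processed pseudogenes, and reads of the latter can be shared with their parent genes.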
